A study of Mus musculus with 20 samples.

Results

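The left and the right atrium of wild-type mice were compared across the genes of an Illumina mouse bead array. The comparison used 10 of the 20 arrays of the series, namely the 5 titled as wild-type left atrium and the 5 titled as wild-type right atrium. The mice were of the CD1 strain and 12 weeks old, and the tissue was labelled as atrial appendage. The remaining 10 arrays held the left and right atria of 5 Pitx2c heterozygous littermates, and are set beside the wild-type values only at the end. All 4 groups had the same strain and age, and no other allele or agent was named. The labels did not say which left and right samples came from 1 mouse or how the mutant allele was made. Each sample was total RNA of whole tissue, so fewer cells of a type and less RNA per cell cannot be told apart.

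The atria arise as unlike chambers. The left atrium receives the veins of the lungs, whereas the right atrium receives the great veins of the body and carries the sinoatrial node, the pacemaker of the heart. Atrial muscle of both sides secretes natriuretic peptides, and the appendages also hold fibroblasts, vessels, lymphatics, nerve fibres, resident immune cells and some fat.

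Levels are given as the deposited signal, which had the array background subtracted, so that a gene without signal lies near or below 0. A difference is left minus right in the mean of log2(signal + 16), with its standard error (SE), and is negative where the right side was higher. Folds are ratios of signal + 16 taken from this difference, so the change of weakly expressed genes is understated. Between 17662 and 19422 probes were detected on each wild-type array, at a detection p under 0.05. The left arrays averaged 18477.6 ± 320 detected probes (SD, n = 5) and the right arrays 18542.2 ± 732 (SD, n = 5), which did not differ by an exact two-sided permutation test (p = 0.849, the smallest possible being 0.00794). Of 10528 genes tested, 463 were called different between the sides at an adjusted p under 0.05 in limma, which is 4.4% of them. The left side was higher for 205 genes (1.95%) and the right side for 258 (2.45%). Counted by probe, 647 of 18624 passed (3.47%), with 1.58% higher in left and 1.89% higher in right. The values of the sides did not overlap for 657 genes (6.24%), and for 424 of the 463 called ones. Over 2-fold differences were found for 82 genes higher in left and 113 higher in right, and over 8-fold differences for 5 and 10. The plot of difference against level places the changes at every level of signal, with the steepest ones toward the right atrium.

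**Figure D1:**
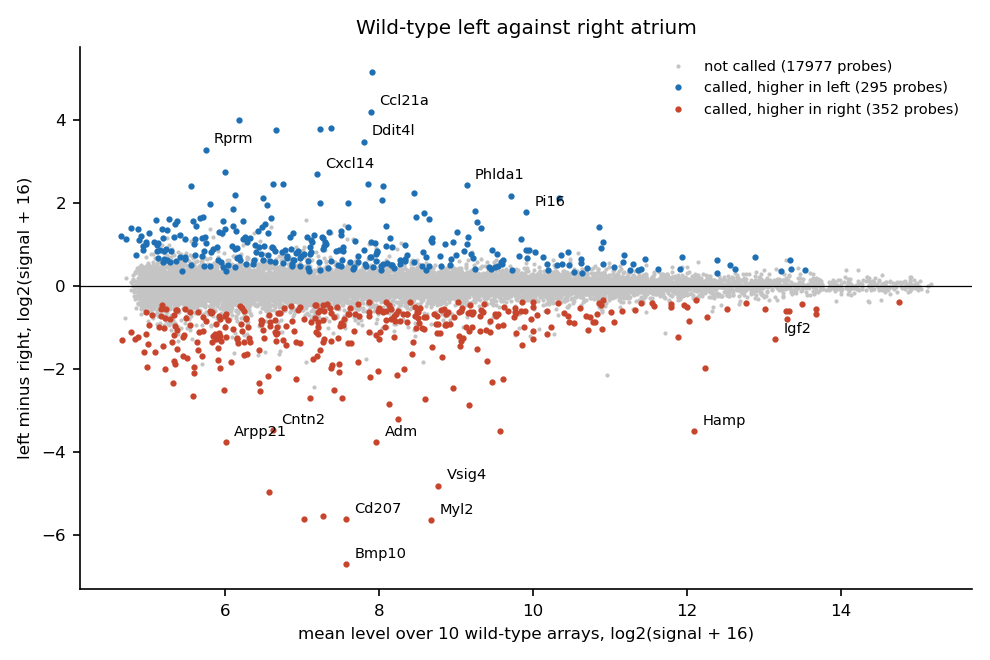
Left minus right difference (log2 scale, y axis) against the mean level over the 10 wild-type arrays (log2 scale, x axis) for the 18624 tested probes. Blue points are the 295 probes called higher in left, red points the 352 called higher in right and grey points the rest; Bmp10 lies lowest, at -6.72.

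The 6 genes that mark atrial muscle (Myl7, Myl4, Nppa, Sln, Myh6 and Mybphl) were detected on all arrays, and their summed signal ranged from 178679 to 197508 in left and from 182639 to 197824 in right. Nppa, the atrial natriuretic peptide, read 31215 to 36495 in left and 35342 to 38626 in right. Those readings sit at the top of the scale, where 38626 is the highest deposited value, so an Nppa difference could have been compressed. Nppb read 21119, 26867, 19279.7, 18460.4 and 10957 in left and 28910.1, 20016, 24128, 23189 and 24746 in right, which overlapped (difference -0.37 ± 0.21, adjusted p = 0.513). Atrial muscle was thus present on both sides, which does not tell appendage from the rest of the atrium. Right replicate 2 stood apart from its label: the ventricular light chains Myl2 and Myl3 read 29383 and 31064 there, beside 28212 for the atrial light chain Myl7, and the next highest right array of Myl2 read 5897. The blood genes Hba-a1 and Alas2 and the skeletal muscle gene Acta1 were also highest there, at 34627, 1420 and 4968. Without that array 568 probes were called in place of 647.

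The 50 gene lists were read against the shares of all genes, 1.95% higher in left and 2.45% higher in right. Members and lists were chosen with earlier results of these data known, so the counts are descriptive and are no test against these shares. Some genes stand in more than 1 list, so the counts are not independent. Macrophage genes gave 13 of 24 higher in right and 1 higher in left. The complement list had 8 of 15 higher in right and 2 in left, and BMP and TGF-beta signalling 7 of 29 against 1. In the sinoatrial node list 5 of 7 genes, and in the insulin-like growth factor list 5 of 11, were higher in right. In the other direction stood lymphatic vessels, with 5 of 10 genes higher in left and 0 in right, and fibroblasts, with 5 of 19 against 1. Chemokines were split, 5 of 21 in each direction. The right-sided insulin-like growth factor count fell from 5 to 2 when any 1 of 5 arrays was left out.

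**Figure D2:**
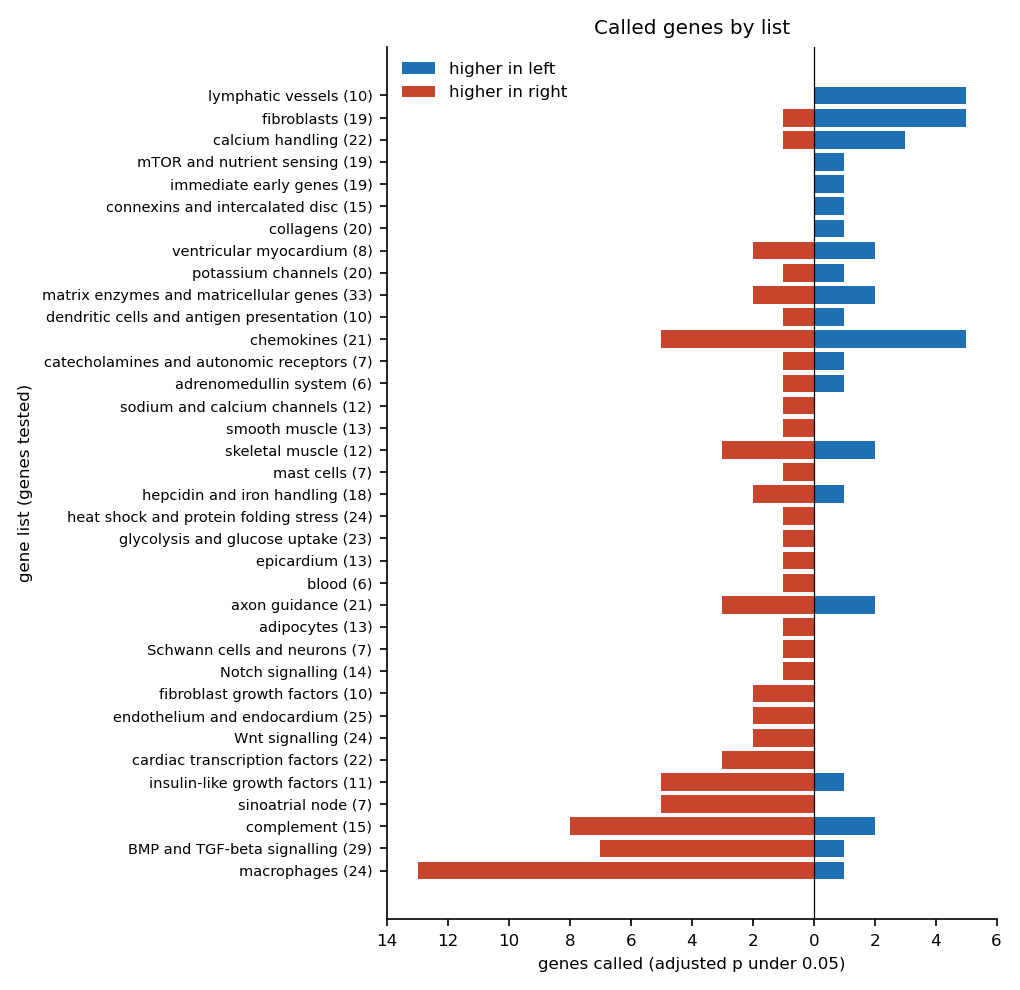
Number of genes called higher in left (blue, to the right of 0) or in right (red, to the left of 0) in each list with at least 1 called gene; the number tested stands in brackets. Macrophages reach 13 genes on the right side, and lymphatic vessels and fibroblasts 5 genes on the left.

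Bmp10, a secreted ligand of the bone morphogenetic protein family made by atrial muscle, showed the largest difference of all named genes. The left arrays read 1, -5.5, 5.6, 6 and 0.9, below detection on all 5, and the right arrays read 714, 2042, 2780.3, 2146 and 3068. The right level of Bmp10 was thus at least 59.7-fold higher (difference -6.72 ± 0.33, adjusted p = 8.40e-07), and the lowest right array, replicate 1, still lay far above every left array. Some genes that BMP signals are known to induce were also higher in right. Whether Bmp10 had a part in these differences, or in that of hepcidin below, was not tested. Id1, an inhibitor of basic helix-loop-helix factors, read 369, 295, 315, 299 and 343 in left and 1019, 759, 781, 787 and 841 in right (2.5-fold, difference -1.32 ± 0.11, adjusted p = 4.83e-05). Every right array exceeded every left array by more than the spread within either side. The sides also did not overlap for Id2 (1.98-fold, difference -0.98 ± 0.16, adjusted p = 0.00516) or for Id4, detected on 1 left and 5 right arrays (5.4 to 15.6 against 36.6 to 53.9, difference -1.34 ± 0.13, adjusted p = 0.000168). Endoglin (Eng), an endothelial co-receptor for this ligand family, was 1.5-fold higher in right (difference -0.59 ± 0.11, adjusted p = 0.0141), a call lost without right replicates 1 and 2 together. Smad6 and Acvr1 were the other right-sided members, and Chrd, a BMP antagonist, was the left-sided one. The remaining 21 of the 29 were not called. Smad7 and Bambi, also in the list, were detected on 0 wild-type arrays and so were not among the 29.

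Hepcidin was the most abundant of the strongly right-sided transcripts. Hepcidin is the peptide hormone that binds the iron exporter ferroportin, best known from liver and also made in heart muscle. Mice carry 2 hepcidin genes, Hamp and Hamp2, both on chromosome 7, and their promoters are shown because that of Hamp is known in liver to carry a BMP-responsive element. The 250 bases before each start of transcription were taken from RefSeq (GRCm38.p6), Hamp at chr7:30944030-30944279 and Hamp2 at chr7:30924182-30924431, both on the minus strand. Capitals mark the letters GGCGCC, the BMP-responsive element of hepcidin, and TTCTTGGAA, its STAT site.
Hamp: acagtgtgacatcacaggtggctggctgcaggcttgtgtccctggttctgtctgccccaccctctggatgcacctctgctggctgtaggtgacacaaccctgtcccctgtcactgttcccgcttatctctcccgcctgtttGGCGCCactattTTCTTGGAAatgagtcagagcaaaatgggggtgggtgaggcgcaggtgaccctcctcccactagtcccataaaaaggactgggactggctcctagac
Hamp2: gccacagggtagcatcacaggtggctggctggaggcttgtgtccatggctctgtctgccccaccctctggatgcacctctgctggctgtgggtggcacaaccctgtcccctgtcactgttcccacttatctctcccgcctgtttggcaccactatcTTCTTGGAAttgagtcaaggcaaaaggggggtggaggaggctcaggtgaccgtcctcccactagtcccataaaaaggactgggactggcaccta
The stretches were identical at 227 of 253 aligned columns (89.7%). The Hamp stretch holds GGCGCC starting 109 bases before the start of transcription, and the aligned letters of Hamp2 are GGCACC, which is the substitution G4A counted from the 5′ end of the element. Both hold TTCTTGGAA, 97 and 94 bases before the start. On either strand, 9.59% of 32851 mouse promoter stretches of this length hold GGCGCC and 0.365% hold TTCTTGGAA, and a match of letters is not evidence of binding.

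Both hepcidin genes were higher on the right by a similar factor. Hamp read 955, 1044, 881, 2364 and 1669 in left and 12663, 17578, 17389.6, 14397 and 11949 in right, an 11.3-fold difference (-3.49 ± 0.26, adjusted p = 2.57e-05). Hamp2 read 181, 168, 96.7, 513 and 259 in left and 3191, 2869, 4333, 2119 and 1256 in right, also 11.3-fold (-3.50 ± 0.41, adjusted p = 0.000661). The groups did not overlap for either gene. Since the genes are close copies and probe sequences were not used here, signal of one read by the probe of the other was not tested. Of the 18 iron genes tested, the other called member was Scara5, a ferritin receptor of stromal cells, which was higher in left.

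Several other secreted factors were right-sided. Adrenomedullin (Adm), a vasodilator peptide, read 33.2, 65.2, 42.5, 58.1 and 64.4 in left and 529.6, 829, 1199, 1197 and 955 in right, a 13.6-fold difference (-3.77 ± 0.23, adjusted p = 5.14e-06). All 5 right arrays lay far above the highest left array. Ramp1, which with the calcitonin receptor-like receptor forms the receptor for calcitonin gene-related peptide, went the other way, at 884 to 1244 in left and 265 to 504 in right (2.63-fold, difference 1.40 ± 0.19, adjusted p = 0.00149). The other 4 genes of the adrenomedullin list were not called. Igf2 was abundant on both sides and 2.41-fold higher in right (3990.5 to 7230.3 against 12129 to 17079.9, difference -1.27 ± 0.17, adjusted p = 0.00142). Igfbp3, a binding protein that carries insulin-like growth factors, was 4.95-fold higher in right (218 to 448.5 against 951.5 to 2084, difference -2.31 ± 0.23, adjusted p = 0.000228). Igfbp5 read 8684 to 14302 in left and 15540.2 to 18949.5 in right (difference -0.67 ± 0.14, adjusted p = 0.022), and its call was lost on leaving out any 1 of 5 arrays, with adjusted p up to 0.0628.

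The growth factor Fgf10, a mesenchymal ligand, read 89.9, 73.8, 59.3, 66.4 and 102 in left and 374, 346, 289, 368 and 259 in right (3.65-fold, difference -1.87 ± 0.15, adjusted p = 4.56e-05). Its receptor Fgfr2 was 2.16-fold higher in right (difference -1.11 ± 0.23, adjusted p = 0.0228), a call lost on leaving out any 1 of 4 arrays (adjusted p up to 0.0641). Both called genes of the 24 in the Wnt list were secreted Wnt antagonists. Sfrp2 read 113, 75.9, 41.8, 38.2 and 91.6 in left and 330.4, 312.5, 126, 545 and 398 in right (difference -1.97 ± 0.36, adjusted p = 0.0107), with a wide spread among the right arrays, and was not called without right replicates 1 and 2 together. Frzb was low but steady, at 24.7 to 44 in left and 94.2 to 122 in right (2.54-fold, difference -1.35 ± 0.12, adjusted p = 0.000104). Prostaglandin D2 synthase (Ptgds) was 5.47-fold higher in right (124.5 to 305 against 865 to 1325, difference -2.45 ± 0.22, adjusted p = 0.000107), and apolipoprotein C1 (Apoc1) 4.55-fold (64.1 to 162 against 327 to 651, difference -2.19 ± 0.23, adjusted p = 0.000312). Angptl7, a secreted angiopoietin-like protein, was 4.1-fold higher (55.3 to 144 against 225 to 742, difference -2.04 ± 0.32, adjusted p = 0.00405). For all of these the sides did not overlap.

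**Figure D3:**
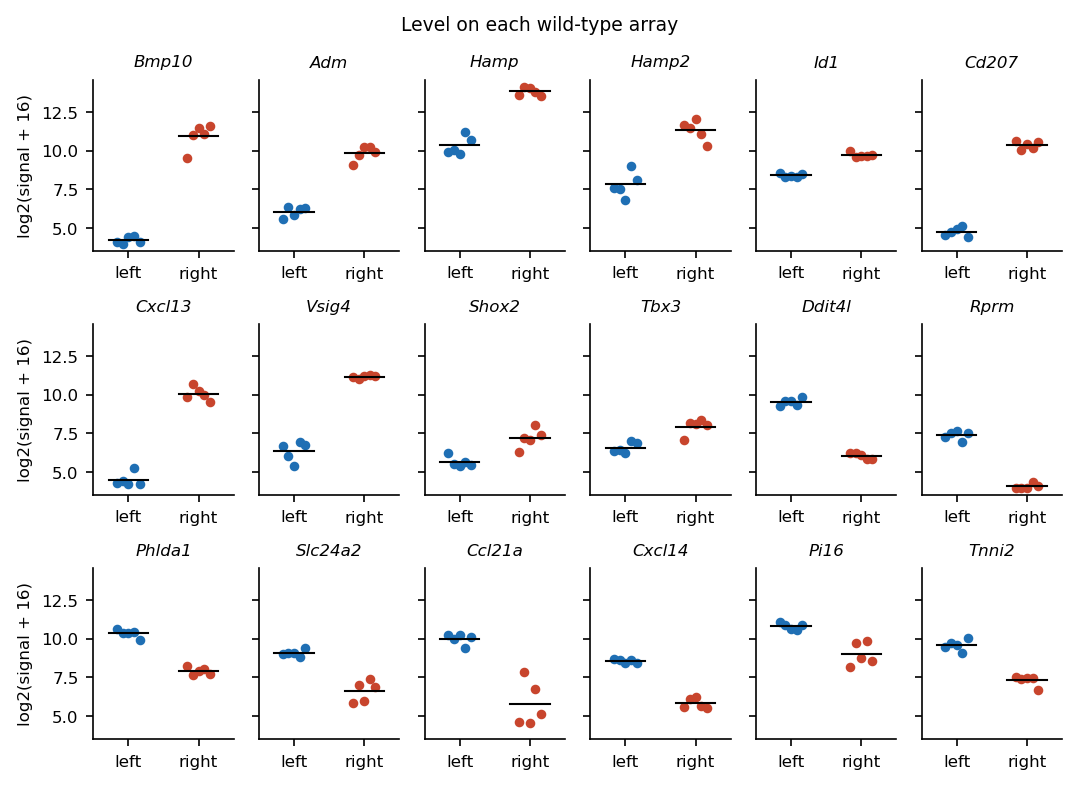
Level of 18 genes on each wild-type array, log2(signal + 16); points are single arrays (blue left, red right) and lines are means of 5. Bmp10, Cd207 and Cxcl13 lie at the floor in left, Rprm lies there in right, and the sides separate for all 18 genes.

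Immune genes were among the steepest right-sided genes. Cd207, the C-type lectin langerin of Langerhans and some dendritic cells, read 7.6, 11, 14.8, 18.8 and 5.2 in left and 1572, 1045, 1392, 1137 and 1502 in right (49.1-fold, difference -5.62 ± 0.16, adjusted p = 1.07e-08). Cxcl13, the chemokine that attracts B cells, read 3.9, 5.6, 2.8, 22.5 and 2.9 in left and 926, 1617, 1197, 977 and 711 in right (47-fold, difference -5.55 ± 0.24, adjusted p = 2.94e-07). Both were detected on 1 of 5 left arrays, so these folds rest on a left level near background. Vsig4, a complement receptor of resident tissue macrophages, read 86.2, 49.6, 26.6, 106 and 91 in left and 2283, 2076, 2348, 2439 and 2352 in right (28.2-fold, difference -4.82 ± 0.25, adjusted p = 1.28e-06). The right arrays of Vsig4 lay close together, and the left ones varied more in proportion.

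General macrophage genes shifted by smaller factors. The fractalkine receptor Cx3cr1 was 3.22-fold higher in right (38.3 to 92.2 against 193 to 301, difference -1.69 ± 0.20, adjusted p = 0.000693) and the phosphatidylserine receptor Timd4 1.98-fold (65.1 to 103 against 125 to 236, difference -0.99 ± 0.16, adjusted p = 0.00671). The summed signal of 6 measured macrophage markers was 1689 to 2301 in left and 4468 to 5416 in right, without overlap, and 5 of those 6 markers were called. That sum is not separate from Vsig4, which alone read 26.6 to 106 in left and 2076 to 2439 in right. The marker not called, Mrc1, read 539 to 817 in left and 468 to 604 in right (difference 0.41, adjusted p = 0.122). Clec10a, a macrophage lectin, was the single macrophage gene higher in left, and the list had no left-sided call without any 1 of 7 arrays. With any 1 array left out, 9 to 12 of the 24 macrophage genes were called higher in right, and without right replicates 1 and 2 the count was 10. Of the complement genes 8 of 15 were higher in right, in a list that is not separate from the macrophage one. Among its 15 tested genes 4 also stood in another list, and Vsig4 is in both. Properdin (Cfp), which stabilises the alternative pathway convertase, was 1.84-fold higher in right (907 to 1230.5 against 1921 to 2056, difference -0.88 ± 0.10, adjusted p = 0.000702). Complement factor I (Cfi), a protease that degrades C3b, was 2.14-fold higher (difference -1.10 ± 0.13, adjusted p = 0.000727). The 3 chains of C1q were also among the right-sided complement genes.

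Other immune cells gave a mixed picture. Cd83, a marker of mature dendritic cells and activated lymphocytes, was higher in left, at 104, 86.8, 122, 97.2 and 73.3 against 36.3, 32.1, 31.7, 38.9 and 34.6 (2.2-fold, difference 1.14 ± 0.12, adjusted p = 0.000285). The other 8 tested genes of the dendritic cell and antigen presentation list were not called; at an unadjusted p under 0.05, 7 of the 10 were higher in right and 1 in left. The mast cell protease Cpa3 was higher in right (14.6 to 35.5 against 53.1 to 132, difference -1.21 ± 0.22, adjusted p = 0.012), as 1 of 7 mast cell genes, a call lost with Adipoq as a covariate. Of 8 lymphocyte genes limma called 0, with 4 at an unadjusted p under 0.05, and of 17 interferon-response genes it called 0, with 1 at an unadjusted p under 0.05; the fits with an intensity trend and robust variance also called 0 in both lists.

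Genes of the sinoatrial node were right-sided, in tissue labelled as appendage. Vsnl1, a neuronal calcium sensor protein, read 101, 68.2, 62.8, 42.6 and 92.8 in left and 252.5, 338, 258, 569 and 397 in right (4.18-fold, difference -2.06 ± 0.24, adjusted p = 0.000662). Shox2, a homeobox factor required for the node, read 59.5, 29.8, 26.8, 35.3 and 28.2 in left and 64.6, 129, 119, 247.5 and 156 in right (difference -1.55 ± 0.28, adjusted p = 0.00976). The highest left and the lowest right array of Shox2, replicate 1 in both cases, nearly met. Tbx3, the T-box repressor that keeps nodal cells from becoming working muscle, read 65.3, 71.9, 59, 113 and 104 and 117, 272.5, 266, 311 and 244 (difference -1.36 ± 0.25, adjusted p = 0.0108). Rgs6, which damps vagal G-protein signalling, was 2.91-fold higher in right (difference -1.54 ± 0.18, adjusted p = 0.00071) and the T-type calcium channel gene Cacna1g 1.77-fold (difference -0.82 ± 0.15, adjusted p = 0.0095). All 5 calls held whichever single array was left out. Tbx3 lost its call with Adipoq as a covariate, Shox2 with the replicate number as a block, and both without the filter on detection. With Myl2 as a covariate, a fit whose limit is given below, 0 of the 5 were called. The channel gene Hcn4, a defining marker of the node, was detected on 0 of 10 arrays, as was the marker Smoc2. Isl1 was detected on 0 left and 2 right arrays, and Tbx18 on 1 left and 2 right arrays. The summed signal of the node markers was 149 to 263 in left and 461 to 1190 in right. That sum is not separate from Vsnl1, Shox2 and Tbx3, the 3 markers in it that were tested. How much nodal tissue the right samples held was not tested.

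Of 22 cardiac transcription factors 3 were called, all of them higher in right. Hey1, a Notch target repressor, read 597, 527, 646, 497 and 507 in left and 1589.7, 1499, 1492, 1489 and 1397 in right (2.66-fold, difference -1.41 ± 0.09, adjusted p = 1.06e-05), with little spread on either side. Tbx20 was 1.88-fold higher in right (difference -0.91 ± 0.17, adjusted p = 0.012), and its 3 probes were all called. Irx3, an Iroquois factor of the fast conduction system, was 2.21-fold higher from low levels (19.2 to 28.1 against 41.1 to 135, difference -1.14 ± 0.22, adjusted p = 0.0146), and lost its call with Adipoq as a covariate. Msc (musculin), a basic helix-loop-helix repressor outside that list, was 3.97-fold higher in right (103 to 195 against 479 to 751, difference -1.99 ± 0.18, adjusted p = 0.000107). Of the 7 tested genes of the left-right axis list limma called 0, and 1 had an unadjusted p under 0.05.

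Genes known from neurons that were named for their differences differed in both directions. Arpp21, Cntn2, Grin3a, Gng13, Unc5b and Gsg1l were higher in right. Mapk10, Dlgap1 and Epha7, given below, were among those higher in left. Of the 7 tested genes of the list for Schwann cells and neurons, 1 was higher in right. Arpp21, a cyclic AMP-regulated phosphoprotein, read 3.1, -2.9, -0.1, 2.8 and 1.5 in left, detected on none, and 322, 156, 246, 216 and 198 in right, at least 7.28-fold higher (difference -3.77 ± 0.16, adjusted p = 2.61e-07). Cntn2 (contactin 2), an axonal adhesion molecule that also marks the cardiac conduction system, read 36.6, -0.7, 4.3, 6.9 and 40.5 in left and 131, 467.5, 310.1, 426 and 358 in right (difference -3.48 ± 0.42, adjusted p = 0.000717). The left arrays of Cntn2 were uneven, with replicates 1 and 5 highest, and all lay below the lowest right array. Grin3a, an NMDA receptor subunit, was at least 3.06-fold higher in right (0.8 to 16.2 against 61.5 to 119.9, difference -2.10 ± 0.19, adjusted p = 0.000111). The G-protein gamma subunit Gng13 was 4.4-fold higher (difference -2.14 ± 0.24, adjusted p = 0.000511), and the netrin receptor Unc5b 2.2-fold (difference -1.14 ± 0.14, adjusted p = 0.000721). Gsg1l, an auxiliary AMPA receptor subunit, varied widely within the left side (399.7, 78.4, 418, 28 and 86 against 1256, 953, 548, 937 and 1400.1, difference -2.72 ± 0.59, adjusted p = 0.0292), and its call was lost on leaving out any 1 of 6 arrays (adjusted p up to 0.0796).

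Transmitter genes were not on 1 side. Dopamine beta-hydroxylase (Dbh), which makes noradrenaline, read 61.8, 48, 26.8, 108 and 55 in left and 440.5, 619, 568, 424 and 283.5 in right (6.53-fold, difference -2.71 ± 0.27, adjusted p = 0.000249). Th, the enzyme before it in that pathway and a marker of sympathetic neurons, was detected on 0 of the 10 arrays. Slc6a2, the noradrenaline reuptake transporter, was instead detected on 5 left and 0 right arrays, at 34.4, 18.9, 51.3, 23.3 and 25.5 against 7.7, 6.5, 1.2, 4 and -6.9, at least 1.4-fold higher in left (difference 1.21 ± 0.18, adjusted p = 0.00335). Its level was low, and Slc6a2 was tested only because the left side detected it. Epha7, an ephrin receptor of axon guidance, was higher in left (457 to 702 against 297 to 363, difference 0.73 ± 0.12, adjusted p = 0.00752), although the mean over its 2 probes was not called.

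Among ion channels and transporters, most genes did not separate the sides. Ryr3, an intracellular calcium release channel of low abundance in heart, read 38.7, 59.8, 30.2, 39.2 and 26 in left and 408, 290.5, 355, 261 and 381 in right (6.54-fold, difference -2.71 ± 0.17, adjusted p = 7.01e-06), and both of its probes were called. Fxyd3, a regulator of the sodium pump, was 7.14-fold higher in right (71.1 to 113 against 584 to 839.5, difference -2.84 ± 0.13, adjusted p = 5.45e-07). Of 20 potassium channel genes, Kcne1 was called higher in right and Kcnd2 higher in left. Kcne1, the accessory subunit of the slow delayed rectifier, read 14.7 to 26 against 45.3 to 179.5 (difference -1.35 ± 0.29, adjusted p = 0.0273). Kcnd2, a subunit of the transient outward current, read 1477.5 to 1959 against 964 to 1363 (difference 0.51 ± 0.12, adjusted p = 0.0375). Both calls were fragile: Kcne1 lost its call without any 1 of 5 arrays and Kcnd2 without any 1 of 7. Kcnj5, a subunit of the acetylcholine-gated channel, read 124, 128, 96.4, 115 and 101 in left and 111, 145, 146, 163 and 145 in right and was not called (difference -0.29 ± 0.11, adjusted p = 0.269).

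Remaining strongly right-sided genes came from no list. Cst9, a cystatin-type protease inhibitor, read 3.9 to 36.8 in left and 86.5 to 185 in right (difference -2.51 ± 0.28, adjusted p = 0.000401). Ftcd, an enzyme of histidine and folate metabolism, was detected on 0 left arrays and was at least 2.27-fold higher in right (difference -2.002 ± 0.21, adjusted p = 0.000343). In all, 20 genes were detected on 5 right and 0 left arrays among the calls, against 10 in the opposite direction; these entered the test only through the side that detected them.

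The left atrium had its own steep genes, among them Ddit4l, Rprm and Mapk10. Ddit4l, an inhibitor of mTOR complex 1 signalling, read 612, 750.3, 774, 644 and 902 in left and 58.9, 59.6, 54.2, 41.5 and 40.4 in right (11.2-fold, difference 3.49 ± 0.13, adjusted p = 9.91e-08). It was the single called gene of the 19 in the mTOR list. Rprm (reprimo), a p53-induced cell cycle inhibitor, read 139, 170.4, 188.5, 106 and 171 in left and -3.4, -3.2, -2.2, 4.4 and 1.4 in right, where no array detected it. Rprm was at least 5.17-fold higher in left (difference 3.30 ± 0.14, adjusted p = 2.94e-07). Mapk10, the JNK3 kinase best known from brain, read 134, 94.6, 204, 162 and 172 in left and -3.8, 9.6, 7.1, 11 and 18.4 in right (6.73-fold, difference 2.75 ± 0.22, adjusted p = 4.83e-05), detected on 1 right array. For Rprm and Mapk10 the right atrium lay at or near background, whereas Ddit4l was detected on all right arrays.

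Phlda1, a pleckstrin-homology-like protein, was abundant in left at 1568, 1292, 1327, 1389 and 967, against 284.5, 185, 231, 249 and 191 in right (5.42-fold, difference 2.44 ± 0.15, adjusted p = 5.77e-06). Ppp1r1b, which encodes the protein phosphatase inhibitor DARPP-32, read 1557.5, 1926, 1579.6, 1526 and 2482 against 376, 634, 439, 308 and 241.5 (4.55-fold, difference 2.18 ± 0.23, adjusted p = 0.000343). Both sides expressed these genes, and the highest right array was below the lowest left one. Slc24a2, a potassium-dependent sodium-calcium exchanger, read 496, 517, 526.5, 443 and 664 in left and 40.7, 113, 47.8, 149.9 and 103 in right (5.5-fold, difference 2.46 ± 0.28, adjusted p = 0.000487). Dlgap1, a postsynaptic scaffold protein, was 3.86-fold higher in left (119.8 to 202 against 7.5 to 58.7, difference 1.95 ± 0.29, adjusted p = 0.00307). Camk2b, a calcium and calmodulin-dependent kinase, was 1.71-fold higher (difference 0.78 ± 0.12, adjusted p = 0.00485). Xpnpep2, an aminopeptidase that cleaves bradykinin, was 4.22-fold higher (421 to 668 against 72.5 to 174, difference 2.08 ± 0.20, adjusted p = 0.000172). Calcium handling genes as a list were mostly uncalled, with 3 of 22 higher in left and 1 in right.

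Lymphatic vessel genes were left-sided. Ccl21a, the chemokine that lymphatic endothelium uses to draw in dendritic and T cells, read 1219.6, 993, 1177, 659.8 and 1090.4 in left and 8.8, 217, 7.2, 93.2 and 18.5 in right (18.6-fold, difference 4.21 ± 0.58, adjusted p = 0.00186). The right arrays were uneven, with replicate 2 highest, and none came near the left range. Its near-identical copy Ccl21c ran in parallel, at 436 to 726 against 4 to 119 (difference 3.83 ± 0.46, adjusted p = 0.000717), and the probes of the copies may share signal. Mmrn1 (multimerin 1), a matrix protein of lymphatic endothelium, read 109, 102, 86.8, 61.2 and 114 in left and -3.4, 22.6, -8, 6.3 and -6.2 in right (5.33-fold, difference 2.41 ± 0.25, adjusted p = 0.000286). Reln (reelin), also secreted by lymphatic endothelium, was 4.34-fold higher (141 to 220.2 against 6.8 to 63.1, difference 2.12 ± 0.30, adjusted p = 0.00206). Prox1, the master regulator of lymphatic fate, was the last of the 5 called genes. The list kept 5 left-sided calls whichever array was left out, and 4 with the mean over the probes of a gene. The near-identical Ccl21a and Ccl21c count separately among the 5. The summed signal of 5 lymphatic markers was 3803 to 5674 in left and 2448 to 3312 in right. That sum is not separate from Ccl21a, and of the other markers only Prox1 was called. Lyve1 read 374 to 686 in left and 585 to 749 in right (difference -0.41, adjusted p = 0.224). Pdpn was not called either (difference 0.29, adjusted p = 0.531), and Flt4 was detected on 1 left and 0 right arrays.

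Further chemokines were split by side. Cxcl14, a chemokine of stromal cells, read 395, 373, 326, 372 and 324 in left and 32.9, 52.6, 60.8, 34.5 and 30.6 in right (6.53-fold, difference 2.71 ± 0.15, adjusted p = 1.92e-06). Ccl8, a monocyte attractant, read 407, 234, 183, 103 and 250.3 in left and 0.3, 56.7, 17, 67.1 and 22.4 in right (5.56-fold, difference 2.48 ± 0.45, adjusted p = 0.0105), with a wide spread on both sides. Ccl11 and Ccl12 were the other left-sided members. The right-sided ones besides Cxcl13 were Ccl4, Ccl6, Cxcl9 and Pf4, and the right-sided count fell from 5 to 2 when left replicate 1, 4 or 5 or right replicate 5 was left out.

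Of 19 fibroblast genes 5 were higher in left, 1 was higher in right and 13 were not called. Pi16, a peptidase inhibitor that marks adventitial fibroblasts, read 2151, 1859, 1601, 1486.5 and 1869.8 in left and 276, 814, 418, 913 and 362 in right (3.47-fold, difference 1.80 ± 0.30, adjusted p = 0.00615). Scara5, a ferritin receptor of the same kind of cell, read 667, 553, 594, 529 and 650.1 against 73.1, 243, 56.2, 142 and 58.1 (5.35-fold, difference 2.42 ± 0.32, adjusted p = 0.00141). On the right side replicates 2 and 4 were highest for Pi16, Scara5, Ccl21a, Reln and Ccl8 alike. Mfap4, a microfibril protein, was 2.21-fold higher in left (1067 to 1783 against 399 to 975, difference 1.14 ± 0.22, adjusted p = 0.0169), a call lost with Adipoq as a covariate. Tcf21, the transcription factor of cardiac fibroblasts and epicardium, went the other way (304 to 499.6 against 600.5 to 978, difference -0.996 ± 0.17, adjusted p = 0.0082). The summed signal of 5 general fibroblast markers overlapped, at 27269 to 33043 in left and 31495 to 35242 in right. Of 20 collagen genes 1 was called (Col8a1, higher in left), and none without any 1 of 7 arrays or with Adipoq as a covariate.

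Other left-sided secreted or membrane proteins were Masp1, a protease of the lectin complement pathway, and vitronectin (Vtn). Masp1 read 802 to 1416.5 in left and 216 to 389.7 in right (3.53-fold, difference 1.82 ± 0.22, adjusted p = 0.000712), against the right-sided trend of the complement list. Vtn read 93.1 to 128 against 9.6 to 52.7 (3.67-fold, difference 1.87 ± 0.23, adjusted p = 0.000791). Adamts8, a secreted metalloprotease, was 3.15-fold higher in left (difference 1.66 ± 0.27, adjusted p = 0.0053). Slco2b1, an organic anion transporter, was 3.4-fold higher (585 to 783 against 125 to 326, difference 1.77 ± 0.24, adjusted p = 0.00183).

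Atrial sarcomere and metabolic programmes differed little. Of 22 atrial sarcomere genes limma called 0, with 3 at an unadjusted p under 0.05, and the fit with an intensity trend and robust variance called 1. Of 46 oxidative phosphorylation genes limma called 0, with 4 at an unadjusted p under 0.05, and the trend and robust fit called 1. Their median difference was 0.12, and 45 of the 46 had a positive difference, against 54.5% of all genes and a median of 0.02. Fatty acid oxidation genes were alike, with 22 of 24 positive, a median of 0.13, 0 called and 3 at an unadjusted p under 0.05. Over all genes 1553 (14.8%) had an unadjusted p under 0.05. Ribosomal protein and circadian clock genes gave 0 calls and 0 at an unadjusted p under 0.05, out of 31 and 11 tested. Skeletal muscle genes were called more often, with 2 of 12 higher in left (16.7%) and 3 higher in right (25%). With any 1 array left out these counts were 1 to 2 and 1 to 3. Tnni2, the fast skeletal troponin I, read 689, 814, 747, 534 and 1051 in left and 169, 152, 164, 161 and 89.4 in right (4.79-fold, difference 2.26 ± 0.20, adjusted p = 9.99e-05). Tnnt3, fast skeletal troponin T, was instead higher in right at low level (0.9 to 19.5 against 35.6 to 122, difference -1.53 ± 0.27, adjusted p = 0.0103).

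Some markers of other tissues also moved with side. Of 13 smooth muscle genes limma called 1, of 25 endothelial genes 2 and of 13 adipocyte genes 1, all higher in right. Over all genes 2.45% were higher in right. In the ventricular list of 8 tested genes, 2 were called in each direction. Myh11, Tagln, Pecam1, Cdh5, Kdr, Tek, Cidec and Lep were not called, and Cnn1, Ucp1 and Retn were detected on 0 arrays. Myl2, the ventricular myosin light chain, read 59.4, 43.9, 106, 34.9 and 6.9 in left and 698, 29383, 924, 5897 and 1712 in right (50-fold, difference -5.65 ± 0.91, adjusted p = 0.00513). It was called with any array left out, and without right replicate 2 the difference was -4.81. Yet the 5 tested ventricular markers split, 1 higher in each direction, and their summed signal overlapped, at 4995 to 11308 in left and 6424 to 61532 in right. Acta2, smooth muscle actin, was 3.9-fold higher in right (1517 to 4176.5 against 4794 to 20109.6, difference -1.96 ± 0.38, adjusted p = 0.0156), a call lost without right replicates 1 and 2 together and with Adipoq as a covariate. The brown fat gene Cidea was 2.34-fold higher in right (difference -1.23 ± 0.21, adjusted p = 0.00791), while Adipoq, the adipocyte hormone, read 297, 131, 9.3, 448 and 611 in left and 1504, 1249, 97.8, 3891 and 205 in right and was not called (difference -1.82 ± 1.07, adjusted p = 0.543). Vwf, made by endothelium, was 1.82-fold higher in right (1306 to 1879 against 2648.5 to 3197, difference -0.87 ± 0.11, adjusted p = 0.00128). The mesothelial gene Upk3b overlapped (2084 to 2974 against 2553 to 3468, difference -0.37 ± 0.13, adjusted p = 0.193). The airway gene Scgb1a1 was uneven, at 173, 2.8, -14, 597 and 954 in left and -8.6, 7, 741, 150 and -13.3 in right, and was not called. The lung genes Sftpa1, Sftpb and Sftpc were detected on 0 arrays.

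The part of these tissues in the side differences was not tested; the values with them in the fit were as follows. With Adipoq as a covariate, 417 probes were called in place of 647. With Myl2 as a covariate 64 were called, but Myl2 shared 77.9% of its variance with side (Adipoq 20.9%), so this fit removes much of the side difference itself. Without right replicates 1 and 2, 514 probes were called, and the lists had 5 right-sided calls of 7 for the node, 7 of 15 for complement and 5 of 29 for BMP, and 5 left-sided calls of 10 for lymphatic vessels. Of the called genes given with values, Tbx3, Irx3, Kcne1, Fgfr2, Mfap4, Kcnd2, Acta2, Cpa3, Igfbp5 and Gsg1l lost their call with Adipoq as a covariate. Eng, Fgfr2, Sfrp2, Kcnd2, Acta2, Igfbp5 and Gsg1l lost it without right replicates 1 and 2, and Kcne1, Cidea, Cpa3, Tnnt3 and Gsg1l in the fit of all 20 arrays. Of the 81 called genes given with values here, 27 were called in every one of 23 settings, the Myl2 covariate included. These were Bmp10, Adm, Hamp, Id1, Cd207, Cxcl13, Vsig4, Hey1, Ryr3, Arpp21, Fxyd3, Ptgds and Ftcd on the right side and Ddit4l, Rprm, Mapk10, Phlda1, Slc24a2, Dlgap1, Ccl21a, Ccl21c, Mmrn1, Reln, Cxcl14, Scara5, Vtn and Slco2b1 on the left.

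**Figure D4:**
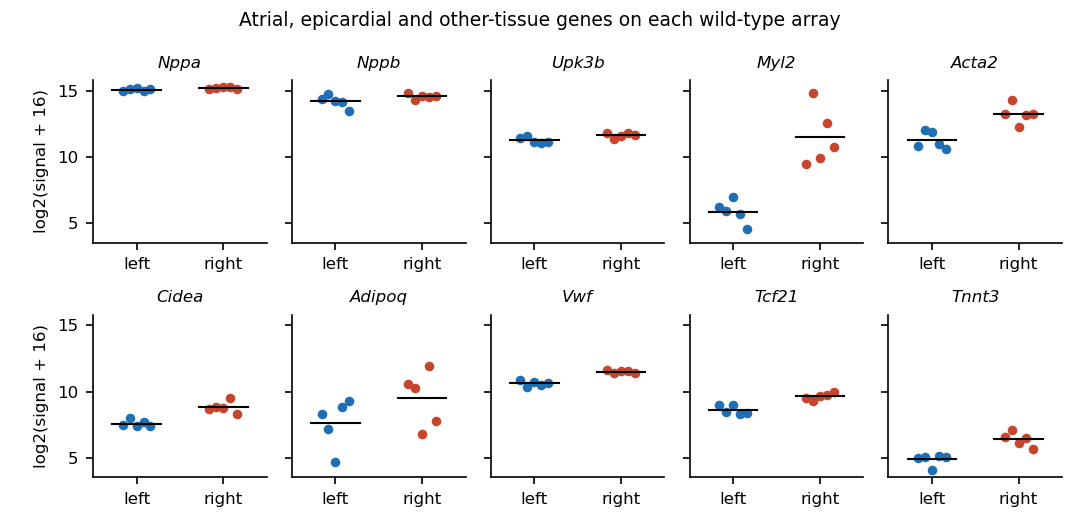
Level of 10 genes of atrial muscle, mesothelium and other tissues on each wild-type array, log2(signal + 16); points are single arrays (blue left, red right) and lines are means of 5. Nppa and Nppb overlap at the top of the scale, whereas Myl2 and Acta2 lie higher in all 5 right arrays and Adipoq spreads over both sides.

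The heterozygous arrays, which the wild-type fit did not use, held side differences of the same sign for most genes called in wild type. Fitted on their own, 208 of the same 10528 genes were called (1.98%), and the sides did not overlap for 4.74% of genes. Of the 463 genes called in wild type, 454 had the same sign in heterozygotes, 161 were also called the same way (34.8% of the wild-type calls and 77.4% of the heterozygous calls), and 0 were called the opposite way. Bmp10 read -3.7, 145, -3.5, 2.1 and 1.8 in heterozygous left and 271, 1873, 1662, 677 and 2179 in heterozygous right (difference -5.33, adjusted p = 0.00299). Left replicate 2 was the highest heterozygous left array for Bmp10, and also for Hamp, Hamp2, Cd207, Vsig4, Adm, Fxyd3 and Myl2. The difference of Hamp was -3.28 in heterozygotes and -3.49 in wild type, and that of Phlda1 2.47 and 2.44. Cxcl13 read 97.2, 91.1, 71.6, 70.3 and 56.5 in heterozygous left, above the wild-type left arrays, and 1422, 1251, 1149, 584 and 1935 in right (difference -3.70). The difference of Rprm was 1.98 against 3.30 in wild type, and that of Arpp21 -2.20 against -3.77. Acta2 was not called there (difference 0.19, adjusted p = 0.934). Tnni2 overlapped in heterozygotes, at 320 to 1349 in left and 150 to 1339 in right.

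The difference between the genotypes was tested itself, as the interaction of side and genotype over all 20 arrays. Of 18624 probes 2 passed in limma (0.0107%), both without a gene name, and 526 had an unadjusted p under 0.05. The interaction of Arpp21 had an adjusted p of 0.0805, that of Rprm 0.147 and that of Cxcl13 0.386. A weaker side difference in heterozygotes was therefore not established for any named gene.

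**Figure D5:**
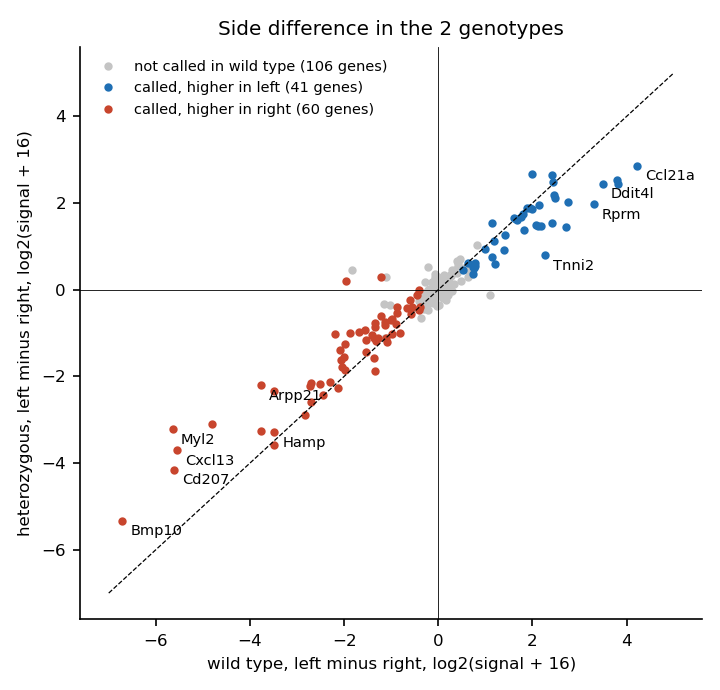
Left minus right difference in wild type (x axis) and in heterozygotes (y axis), both on the log2(signal + 16) scale, for the 207 genes chosen by rule; the dashed line marks equality. Blue and red points are genes called in wild type, and most called points lie in the quadrants of equal sign, with Bmp10 at -6.72 and -5.33.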

How the data were processed

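Total RNA of 20 atrial samples was hybridised to an Illumina mouse bead array, 1 array per sample. The authors' deposited intensity values had the background subtracted and shared 1 distribution over arrays (sorted values differed by at most 1.8, and 33.7% to 33.9% of values were below 0), so they were taken as quantile-normalized; software and genome build were not given in the sources used here. Each deposited detection score was turned into a detection p-value as 1 minus the score. Signals were floored at 0, 16 was added and log2 taken. A probe was tested if its detection p was under 0.05 on at least 5 of the 10 wild-type arrays, and left and right were compared with limma 3.58.1 in R 4.3.3, with Benjamini-Hochberg adjustment over all 18624 probes tested and a call at an adjusted p under 0.05. The planned design used neqc only for signals not yet corrected and normalized, so neqc is an alternative here. A gene is read by its tested probe of highest mean level over the wild-type arrays. Of 45281 probes, 34885 had 1 gene symbol, 18 several and 10378 none.

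Genes named are the 25 with the largest differences in each direction among called genes without overlap, up to 4 called and 2 uncalled genes of each list, and a fixed set of atrial genes; those given only by name complete the called members of a list. Members and lists were chosen with earlier results of these data known. Where a side detected a gene on 0 arrays, "at least" gives the bright side's mean over the dim side's lowest detected signal. On simulated data for the wild-type side comparison over 18624 probes, 86.6% of 67 probes changed by 1 on the log2 scale were recovered, and 25.4% of 67 changed by 0.5. The number of arrays limits the precision. With 5 mice per genotype and 5 arrays per side, left and right samples may come from the same mice. The labels do not say which belong together, so the fit treated all arrays as unpaired. The p-values measure the spread between these samples. Alternatives changed the normalization, offset, filter, variance model, arrays and covariates.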

Additional observations from a re-analysis of the deposited data

Results flagged for a closer look

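On 6 of 172 combinations of a gene and a wild-type group, 1 array lay apart from the other 4 by Dixon's criterion at the 95% level, which chance meets in about 1 of 20 groups. Right replicate 1 was lowest for Bmp10, at 714 against a next value of 2042, and for Tbx3, at 117 against 244. Cxcl13 reached 22.5 in left replicate 4, where the next left array read 5.6. Vtn read 52.7 in right replicate 2 (next value 17.0). Tnni2 read 89.4 in right replicate 5 (next value 152). Tnnt3 read 0.9 in left replicate 3 (next value 16).

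The side difference differed between wild type and heterozygotes for 2 probes without a gene name. Probe ILMN_3118071 read 1610, 1442, 1597, 1386 and 1135 in wild-type left and 25.3, 37.2, 17.9, 18.2 and 22.9 in wild-type right, and 1155 to 1467 in left and 435 to 835 in right of heterozygotes. Its side difference was larger in wild type by 3.81 on the log2 scale (adjusted p of the interaction = 2.05e-08). Probe ILMN_1220244 read 222 to 311 in wild-type left and -5.4 to 5.9 in wild-type right, and 71.3 to 141 in heterozygous right. Its side difference was larger in wild type by 2.68 (adjusted p = 3.24e-06). In both cases the change between genotypes lay in the right atrium.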

How the results depend on the processing

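The 647 probes called (295 higher in left, 352 in right, 260 of the calls over 2-fold) were within 1.5 times of the counts with neqc, offsets of 8 or 32, detection on all 5 arrays of a group, all 20 arrays, an intensity trend with robust variance, and array weights. Without a filter on detection, 408 probes passed (193 left, 215 right), with more probes in the adjustment. With the replicate number as a block 423 passed (184 left). Most same-numbered arrays did not deviate together (r from -0.432 to 0.355 between their deviations, over 0.1 in 2 of 5 pairs, and 1 left array correlated best with its own number). This cannot tell whether left and right samples share mice under other numbers. Leaving out 1 array gave 428 to 652 probes, 186 to 309 higher in left and 241 to 343 in right; the count was lowest without right replicate 4, and left-sided calls were also over 1.5 times fewer without left replicate 2 or right replicate 5. Chosen after seeing the data, the Adipoq covariate gave 417 (213 right) and the Myl2 covariate 64 (38 left, 26 right, 64 over 2-fold). The cause of these changes was not tested, beyond the variance that Myl2 shares with side. The right-sided share of calls was 54.4% in the reported fit and 40.6% with the Myl2 covariate, and 49.3% to 60.2% elsewhere. All 81 called genes given with values kept their direction in every setting. Of them 62 were called without the filter, 72 with the block, 71 with the Adipoq covariate and 29 of 80 with the Myl2 covariate; 76 kept their call whichever array was left out. Below background only bounds can be given.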
